A study of Rattus norvegicus with 44 samples.

Results

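Whole ovaries treated with LIF were compared directly with whole ovaries treated with FGF2, on the 6 arrays whose titles name these factors, of 44 arrays in the series and 38 in the set they belong to. Ovaries came from 4-day-old female Sprague-Dawley rats and were kept in organ culture for 48 h with rat LIF (leukemia inhibitory factor) or rat FGF2 (fibroblast growth factor 2), each at 50 ng/ml and each on 3 samples. A sample was the RNA of 2 or 3 ovaries of a single culture well, from different pups of one litter, and the labels call the samples of a factor biological replicates. No animal carried an engineered allele, and the 14 controls of the set were cultured in the same way with no factor. The controls and 18 arrays of the other growth factors entered the fit for the spread between samples only. These factors were AMH, BMP4, GDNF, FGF7, KIT ligand and PDGF-AB, each at 50 ng/ml for 48 h. Control levels are given below as a description.

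LIF signals through the LIF receptor and its partner gp130, which activate JAK kinases and the transcription factor STAT3; SOCS3 is induced by STAT3 and shuts the receptor complex down again. FGF2 signals through FGF receptors to the RAS-ERK cascade, whose activity induces its own inhibitors, among them the ERK phosphatase DUSP6 and the Sprouty proteins. The cascade also induces the PEA3 group of ETS factors. Both factors are known to promote the transition of primordial to primary follicles in the neonatal rat ovary, where most follicles are still primordial.

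Of 27342 probe sets, 51 differed between LIF and FGF2 at an adjusted p under 0.05 by limma (0.187%). Among them 29 were higher with LIF (0.106% of all tested) and 22 were higher with FGF2 (0.0805%). A single gene symbol was available for 26 of the 29 and 19 of the 22. The differences of the 29 ran from 0.46 to 5.45 on the log2 scale with a median of 1.21, and those of the 22 from 0.56 to 1.85 with a median of 0.86. In all 51 the 3 LIF values did not overlap the 3 FGF2 values, a separation also seen in 2.9% of all probe sets toward LIF and in 6.28% toward FGF2. The thresholds that the methods used for single factors were applied to the unadjusted p of limma. By these, 313 probe sets were higher with LIF (1.14%) and 363 higher with FGF2 (1.33%), and 50 of the 51 were among them. With the methods' own t-test on log2 values the counts were 172 and 151. An unadjusted p under 0.05 was reached by 4.13% of all probe sets.

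**Figure D1:**
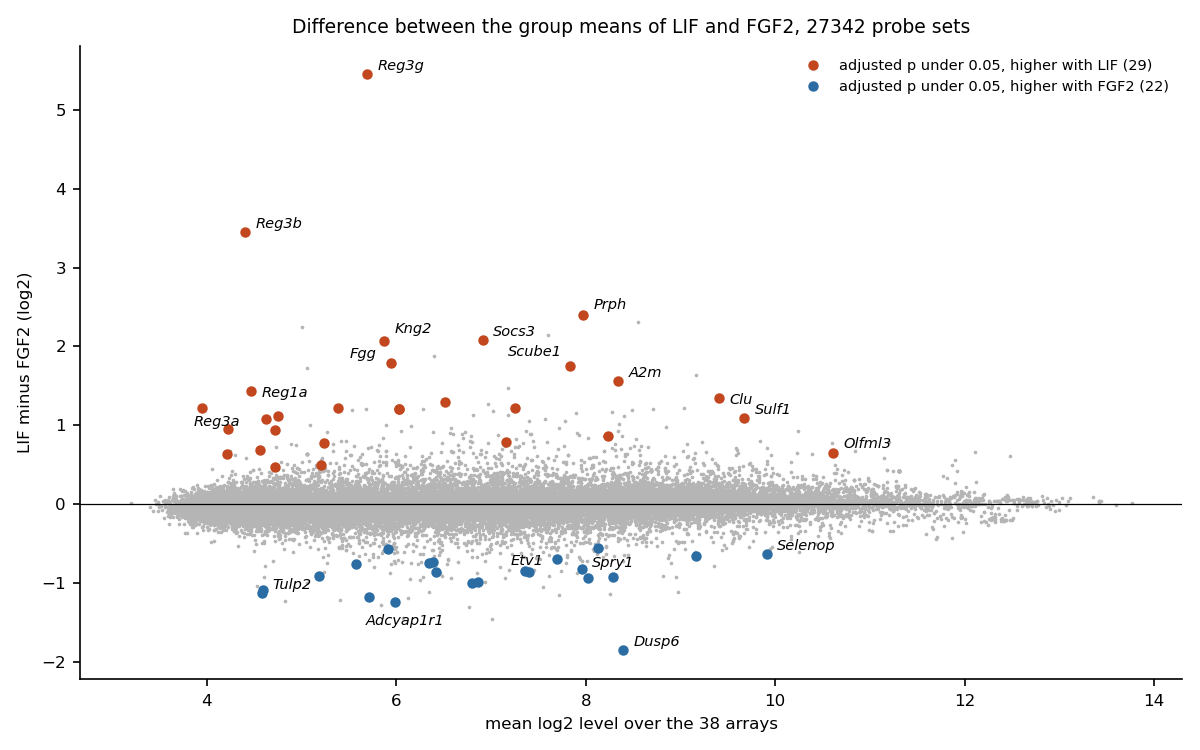
Difference between the mean log2 levels of LIF and FGF2 (vertical axis) against the mean log2 level over the 38 arrays (horizontal axis), with a point for each of 27342 probe sets. The 29 coloured points above the line are the probe sets called higher with LIF, led by Reg3g at 5.45, and the 22 below it are those called higher with FGF2, led by Dusp6 at -1.85.

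The calls rested unequally on single samples. FGF2 sample 1 deviated most from its group mean over all probe sets (root mean square 0.296, against 0.154 to 0.212 in the other samples). The lowest correlation between arrays within FGF2, 0.9762, was under the lowest between a LIF and an FGF2 array, 0.9772. Without LIF sample 1 there were 18 calls (16 higher with LIF and 2 with FGF2), without FGF2 sample 1 there were 25 (23 and 2), and without LIF sample 3 there were 32 (27 and 5). When both samples numbered 1 were left out, 12 calls were made, all of them among the 51, with 11 higher with LIF and 1 higher with FGF2. The level of oocyte markers also set these samples apart: the mean log2 level of 12 measured markers was 8.59 in LIF sample 1 and 7.60 in FGF2 sample 1, against 9.43 and 9.48 in the other LIF samples and 9.95 and 9.52 in the other FGF2 samples. The median difference of the oocyte list was 0.91 between the samples numbered 1 and -0.25 over the other pairs, and the part of the oocytes in the results was not tested. As these are whole ovaries, fewer cells of a type cannot be told apart from less RNA per cell.

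Reg3g and Reg3b had the largest differences of all probe sets. The Reg genes encode small secreted C-type lectins, of which Reg3b and Reg3g proteins are antibacterial in the gut and the group is known as a target of gp130 cytokines in other tissues. The log2 level of Reg3g was 10.53, 10.80 and 9.78 in the LIF samples and 4.84, 4.78 and 5.13 in the FGF2 samples. No FGF2 value lay outside the range of the controls (4.77 to 6.74, median 5.13), and each LIF value lay above it. The difference was 5.45 ± 0.38 (SE), a 43.7-fold ratio (adjusted p = 1.54e-11 by limma). Reg3b measured 7.58, 8.34 and 6.44 with LIF against 3.99, 4.04 and 3.97 with FGF2, a difference of 3.45 ± 0.24 (adjusted p = 1.54e-11). Its LIF values were widely spread and its FGF2 values nearly equal. Reg1a was 1.44 ± 0.18 higher with LIF (5.81, 6.09 and 5.14 against 4.37, 4.23 and 4.14; adjusted p = 9.72e-06). Reg3a was 1.22 ± 0.15 higher (4.71, 5.68 and 4.68 against 3.90, 3.66 and 3.84; adjusted p = 9.05e-06). The fifth member measured, Reg4, differed by -0.08 and did not pass the test. The 4 genes that passed lie side by side on chromosome 4 in the order Reg3b, Reg3a, Reg1a, Reg3g, and, since they are paralogs, probes of one could also have bound transcripts of another, which was not tested.

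RefSeq promoters were matched for 37 of the 45 called genes with a symbol, and 250 bases upstream of the first listed start were searched on both strands for TTCNNNGAA, the letters that STAT factors are known to bind. The stretches below show the neighbouring Reg genes, which differed together, and the other genes higher with LIF that held a match; capitals mark the match. All are 160 bases from GRCr8, read 5′ to 3′ on the gene's strand: Reg3b at chr4:112419616-112419775 (+), Reg3a at chr4:112430237-112430396 (+), Reg1a at chr4:112450216-112450375 (+), Reg3g at chr4:112484739-112484898 (-), Itih4 at chr16:6086825-6086984 (+) and Plppr1 at chr5:68232803-68232962 (+).
Reg3b: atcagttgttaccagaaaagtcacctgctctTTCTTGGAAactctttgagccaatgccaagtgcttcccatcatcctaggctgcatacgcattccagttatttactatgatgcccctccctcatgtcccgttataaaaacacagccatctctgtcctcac
Reg3a: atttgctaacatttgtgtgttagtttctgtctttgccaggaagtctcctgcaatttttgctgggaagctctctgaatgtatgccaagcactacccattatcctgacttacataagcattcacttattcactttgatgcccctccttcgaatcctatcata
Reg1a: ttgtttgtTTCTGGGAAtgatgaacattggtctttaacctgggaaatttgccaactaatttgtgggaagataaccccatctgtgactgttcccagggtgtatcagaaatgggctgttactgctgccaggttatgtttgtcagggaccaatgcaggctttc
Reg3g: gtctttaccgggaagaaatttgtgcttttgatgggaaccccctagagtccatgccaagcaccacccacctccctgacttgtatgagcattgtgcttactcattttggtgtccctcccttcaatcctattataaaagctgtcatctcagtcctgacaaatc
Itih4: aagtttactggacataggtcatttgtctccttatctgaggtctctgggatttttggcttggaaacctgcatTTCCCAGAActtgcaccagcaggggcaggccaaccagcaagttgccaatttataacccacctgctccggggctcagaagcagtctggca
Plppr1: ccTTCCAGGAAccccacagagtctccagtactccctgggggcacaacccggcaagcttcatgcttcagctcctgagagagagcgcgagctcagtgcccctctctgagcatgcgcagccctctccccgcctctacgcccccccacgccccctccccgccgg

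The match began 129 bases before the start in Reg3b, 242 in Reg1a, 89 in Itih4 and 158 in Plppr1. It was found in 4 of 21 promoters of genes higher with LIF, in 1 of 16 of genes higher with FGF2 (Nsg2) and in 7.52% of all 27457 promoters. The stricter TTCCNGGAA, a subset of these letters, was held by Plppr1 alone and by 1.04% of all. TGANTCA, the AP-1 site, was in 3 of the 21 (Trim2, Scnn1g and C1qtnf6), in 0 of the 16 and in 6.36% of all. CCGGAAGT, an ETS site, was in 0 of both groups and in 3.29% of all. The longest run of bases shared by upstream regions of 2 Reg genes was 15, in Reg3b and Reg3g. No promoter entry was matched for A2m, Clu, Sulf1, Sh2d4a, Kctd19, Tmem204, Sod3 and Aplnr.

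Within the JAK-STAT pathway, Socs3 differed most. This feedback inhibitor of gp130 and JAK measured 9.28, 8.56 and 8.20 with LIF and 6.74, 6.62 and 6.42 with FGF2, and the FGF2 values lay within the control range of 6.40 to 7.51. The difference was 2.09 ± 0.23, a 4.24-fold ratio (adjusted p = 1.34e-06 by limma), and it stayed called whichever of the 6 samples was left out. It was the only 1 of 13 measured JAK-STAT components and feedback genes that passed, and the median of the list was 0.15 beside -0.02 over all probe sets. Jak2, the kinase, was 0.71 ± 0.18 higher with LIF with no overlap of the groups (10.66, 10.44 and 10.19 against 9.96, 9.56 and 9.64) and did not pass (adjusted p = 0.199). Of 21 other known STAT3 target genes, such as Myc, Pim1, Junb and Bcl3, limma called 0 with or without the block. The list median was 0.02, and the 2 genes with an unadjusted p under 0.05 were both higher with FGF2.

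Receptor genes were measured on both sides. Lifr, the LIF receptor itself, measured 8.97, 8.80 and 8.75 with LIF and 7.52, 8.10 and 8.31 with FGF2. The groups did not overlap, the difference was 0.86 ± 0.20, and the adjusted p was 0.0542 by limma; with the replicate number as a block in the fit it was 0.0195. It also passed without the block after a second quantile normalization, among probe sets with 1 symbol alone and without FGF2 sample 3 (0.0228), and it was 0.611 without FGF2 sample 1. Osmr, the oncostatin M receptor that also pairs with gp130, overlapped between the groups (9.32, 9.21 and 8.52 against 8.76, 7.83 and 7.55) and differed by 0.97 ± 0.40. Il6st, which encodes gp130, differed by 0.15 ± 0.18. For the FGF receptors the differences were -0.23 ± 0.17 (Fgfr1), 0.22 ± 0.26 (Fgfr2), 0.42 ± 0.29 (Fgfr3) and 0.06 ± 0.14 (Fgfr4). The ligand genes Lif (-0.09 ± 0.22) and Fgf2 (-0.17 ± 0.14) did not pass either, and the added proteins are not measured by an array. With the block, none of these ligand and receptor genes but Lifr passed. In the lists they belong to, limma called 0 of 20 FGF ligand genes and 0 of 13 FGF receptors and cofactors. It also called 0 of 13 gp130 ligands and receptors. An unadjusted p under 0.05 was reached by 1, 1 and 5 genes of these lists, beside 4.13% of all probe sets.

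**Figure D2:**
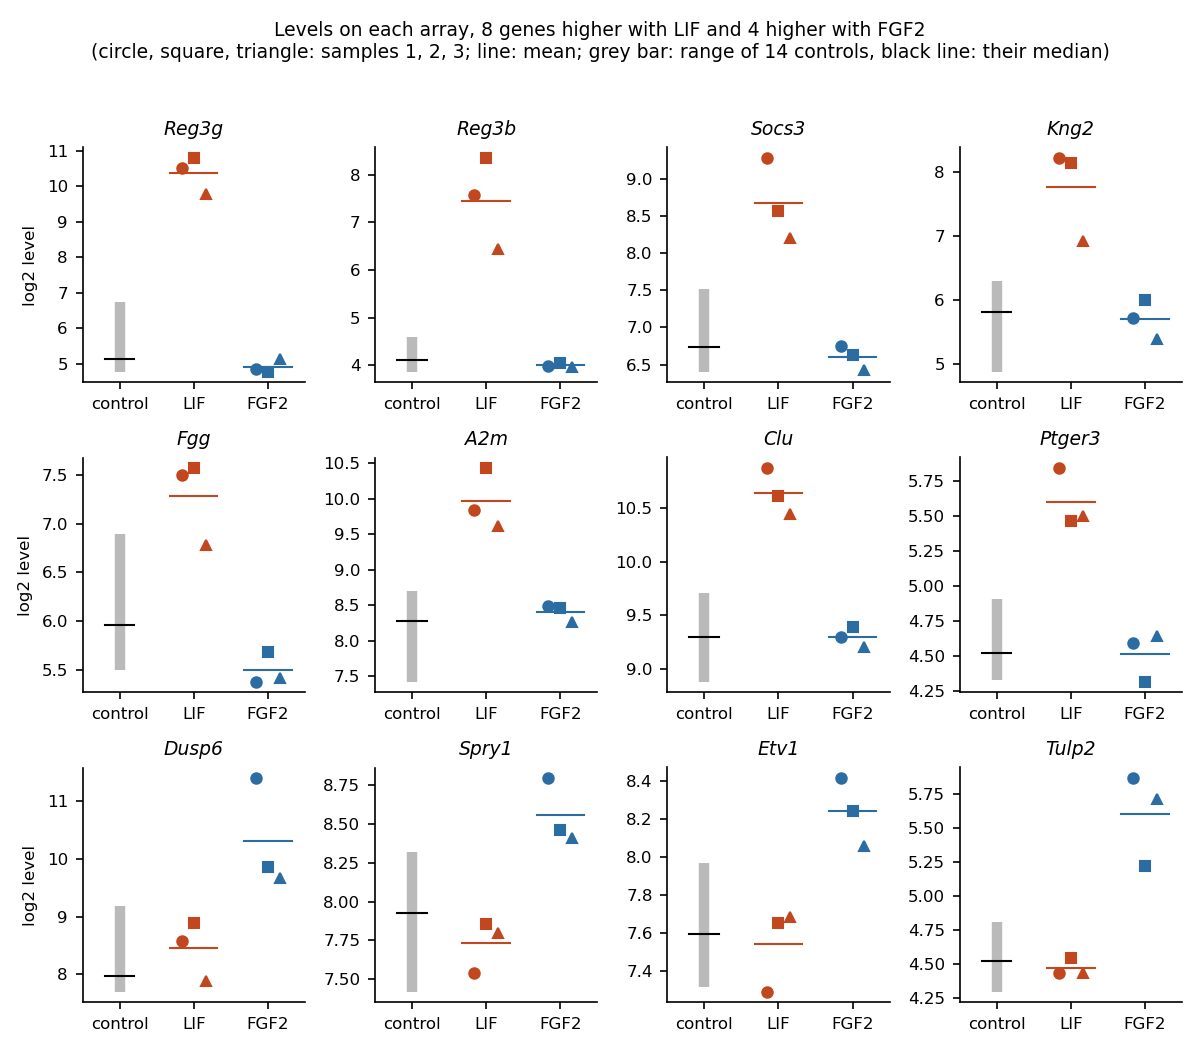
Log2 level on each array for 8 genes higher with LIF and 4 higher with FGF2; the symbols mark samples 1, 2 and 3, the lines the group means, the grey bars the range of 14 controls and the black lines their median. For Reg3g, Reg3b, Socs3 and A2m the LIF samples stand above the controls and the FGF2 samples within their range, while for Dusp6 the FGF2 samples stand above both.

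Proteins of the acute phase, which the liver secretes in inflammation under gp130 cytokines, held the most calls of the gene lists. Of 22 measured, 6 passed and all 6 were higher with LIF, and the median was 0.22 beside -0.02 over all probe sets. In direction, 14 of the 22 were higher with LIF and 8 lower, while 56% of all probe sets were lower with LIF. At or above the median level this share was 46.7%, and 15 of the 22 lay below that level. Kng2, a kininogen gene, measured 8.22, 8.16 and 6.93 against 5.72, 6.0 and 5.39, a difference of 2.07 ± 0.34 (adjusted p = 1.41e-03). The gene of the fibrinogen gamma chain, Fgg, measured 7.51, 7.57 and 6.78 against 5.38, 5.69 and 5.41, a difference of 1.80 ± 0.30 (adjusted p = 1.50e-03), with 2 FGF2 values below the control range of 5.495 to 6.90. In A2m, which encodes the protease inhibitor alpha-2-macroglobulin, the values were 9.84, 10.43 and 9.62 against 8.49, 8.46 and 8.26, a difference of 1.56 ± 0.26 (adjusted p = 1.52e-03). LIF sample 3 had the lowest LIF value in each of these 3 genes and still lay above every FGF2 sample.

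Clusterin (Clu), a secreted chaperone, was 1.35 ± 0.16 higher with LIF (10.87, 10.61 and 10.44 against 9.29, 9.39 and 9.20; adjusted p = 4.47e-06). Its FGF2 mean differed from the control mean by -0.03 and its LIF mean by 1.32. Kng1, another kininogen gene and the direct neighbour of Kng2, was 1.12 ± 0.24 higher (6.29, 6.15 and 5.32 against 4.91, 5.08 and 4.41; adjusted p = 0.0314), and its call was lost without LIF sample 1, LIF sample 2, FGF2 sample 1 or FGF2 sample 3 (adjusted p = 0.397, 0.284, 0.111 and 0.267). The kininogen genes are paralogs, and whether probes of one also bound transcripts of the other was not tested. Itih4, an inter-alpha-inhibitor heavy chain, was 0.63 ± 0.10 higher (5.02, 4.70 and 4.68 against 4.21, 4.15 and 4.13; adjusted p = 1.44e-03; 0.0557 without LIF sample 1). Serpina3n, a serine protease inhibitor of the same list, measured 6.95, 7.08 and 5.94 against 4.53, 4.36 and 4.33. This was the largest difference of the list, 2.25 ± 0.55, with an adjusted p of 0.125, and of 0.0129 with the replicate number as a block. Every LIF and FGF2 value of Serpina3n lay within the control range of 4.15 to 7.48. Haptoglobin and the other members not named here did not pass.

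Genes of other functions made up the rest of those higher with LIF. Prph, the intermediate filament peripherin of neurons, measured 9.86, 8.69 and 9.69 with LIF and 6.57, 6.89 and 7.60 with FGF2. The difference was 2.40 ± 0.49 (adjusted p = 0.0207), with the LIF mean 1.48 above and the FGF2 mean 0.92 below the control mean. Scube1, a secreted and membrane-bound EGF-domain protein, was alike in this: 9.09, 8.47 and 8.66 against 6.32, 7.31 and 7.35, a difference of 1.75 ± 0.32 (adjusted p = 7.20e-03), with the LIF mean 0.90 above and the FGF2 mean 0.85 below the controls. The controls of Prph spanned 6.36 to 9.15, a range that held every FGF2 value and LIF sample 2. Those of Scube1 spanned 7.18 to 8.43. Every LIF value of Scube1 lay above that range, and of its FGF2 values only sample 1 lay below it. Both calls were lost without LIF sample 1 (adjusted p = 0.224 for Prph and 0.112 for Scube1) or FGF2 sample 1 (0.223 and 0.157), and that of Prph also without LIF sample 3 (0.146) or FGF2 sample 2 (0.0888).

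Ptger3, a receptor of prostaglandin E2, measured 5.84, 5.46 and 5.50 with LIF and 4.59, 4.32 and 4.64 with FGF2, a difference of 1.09 ± 0.12 (adjusted p = 1.34e-06). It was called whichever of the 6 samples was left out and was the only 1 of 17 prostaglandin genes that passed. In the opposite direction, Ptgs2, the inducible cyclooxygenase, was 5.53, 5.995 and 5.59 with LIF and 8.43, 6.64 and 5.88 with FGF2. These values overlapped, the difference was -1.28 ± 0.35, the adjusted p was 0.243, and FGF2 sample 1 stood far above the other FGF2 samples.

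The beta and gamma subunits of the epithelial sodium channel, encoded by the neighbouring genes Scnn1b and Scnn1g, were both higher with LIF. Scnn1b measured 7.06, 7.05 and 6.64 against 5.40, 5.88 and 5.83, a difference of 1.21 ± 0.27 (adjusted p = 0.0420), and lost its call whichever of the 6 samples was left out (adjusted p from 0.0542 to 0.459). Scnn1g was 0.94 ± 0.16 higher (5.69, 5.10 and 5.48 against 4.23, 4.47 and 4.74; adjusted p = 1.44e-03). The ubiquitin ligase gene Trim2 (1.22 ± 0.19), the melatonin receptor gene Mtnr1a (1.21 ± 0.25) and Sectm1b (1.2 ± 0.19) also passed among the 15 largest. For Trim2 the values were 8.35, 8.10 and 8.02 against 6.84, 6.88 and 7.09. The FGF2 samples of Mtnr1a all lay within the control range of 4.72 to 5.91. Mtnr1a was not called without LIF sample 1, FGF2 sample 1 or FGF2 sample 3 (adjusted p = 0.379, 0.143 and 0.137). The remaining 8 genes with a symbol, named after their values were seen, were Sulf1, which encodes a heparan sulfate 6-O-endosulfatase (1.09), Plppr1 (0.95), C1qtnf6 (0.86), Sh2d4a (0.78), Kctd19 (0.78), Olfml3 (0.65), Kif1a (0.49) and Scnn1g, given above.

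Among genes higher with FGF2, Dusp6 differed most. The gene of this ERK phosphatase measured 11.40, 9.85 and 9.67 with FGF2 and 8.58, 8.90 and 7.88 with LIF, and the control range was 7.70 to 9.18. Every FGF2 value lay above the control range and every LIF value lay inside it. The difference was -1.85 ± 0.38 (LIF minus FGF2), a 3.61-fold ratio (adjusted p = 0.0199 by limma). It was lost without LIF sample 1 (adjusted p = 0.0915), LIF sample 3 (0.240) or FGF2 sample 1 (0.461), and without both samples numbered 1 the difference was -1.37. Spry1, a Sprouty inhibitor of the RAS-ERK cascade, measured 8.79, 8.46 and 8.41 with FGF2 and 7.54, 7.86 and 7.80 with LIF, a difference of -0.83 ± 0.16 (adjusted p = 0.0155; 0.192 without LIF sample 1 and 0.223 without FGF2 sample 1).

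Dusp6 and Spry1 were the 2 of 17 ERK feedback genes that passed. Of the 17, 16 were lower with LIF, with a median of -0.32 beside -0.02 over all probe sets. Of all probe sets 56% were lower with LIF, and of those at or above the median level 46.7%, with 2 of the 17 below that level. The list median was -0.43 between the samples numbered 1 and -0.19 over the other pairs. Spry4 measured 7.97, 6.45 and 6.65 with FGF2 against 6.14, 6.18 and 5.92 with LIF, a difference of -0.94 ± 0.26 that did not pass (adjusted p = 0.248). Dusp5, Errfi1 and Spred1 also had groups that did not overlap and did not pass.

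Of the 21 PEA3 and immediate early genes, Etv1 passed (8.42, 8.24 and 8.06 with FGF2 against 7.29, 7.65 and 7.68 with LIF; -0.70 ± 0.15, adjusted p = 0.0328). Its call was lost with the replicate number as a block (adjusted p = 0.0577) and without LIF sample 1, 2 or 3 or FGF2 sample 1 or 2 (0.0542 to 0.426). For Etv4, of the same ETS group, the block worked the other way: the difference of -0.94 ± 0.28 (8.33, 7.37 and 7.60 against 6.90, 6.83 and 6.79) had an adjusted p of 0.442 without and 0.0389 with the block. Etv5 differed by -0.74 ± 0.22 and did not pass in either fit. The median of the list was -0.17, with -0.31 between the samples numbered 1 and -0.09 over the other pairs.

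**Figure D3:**
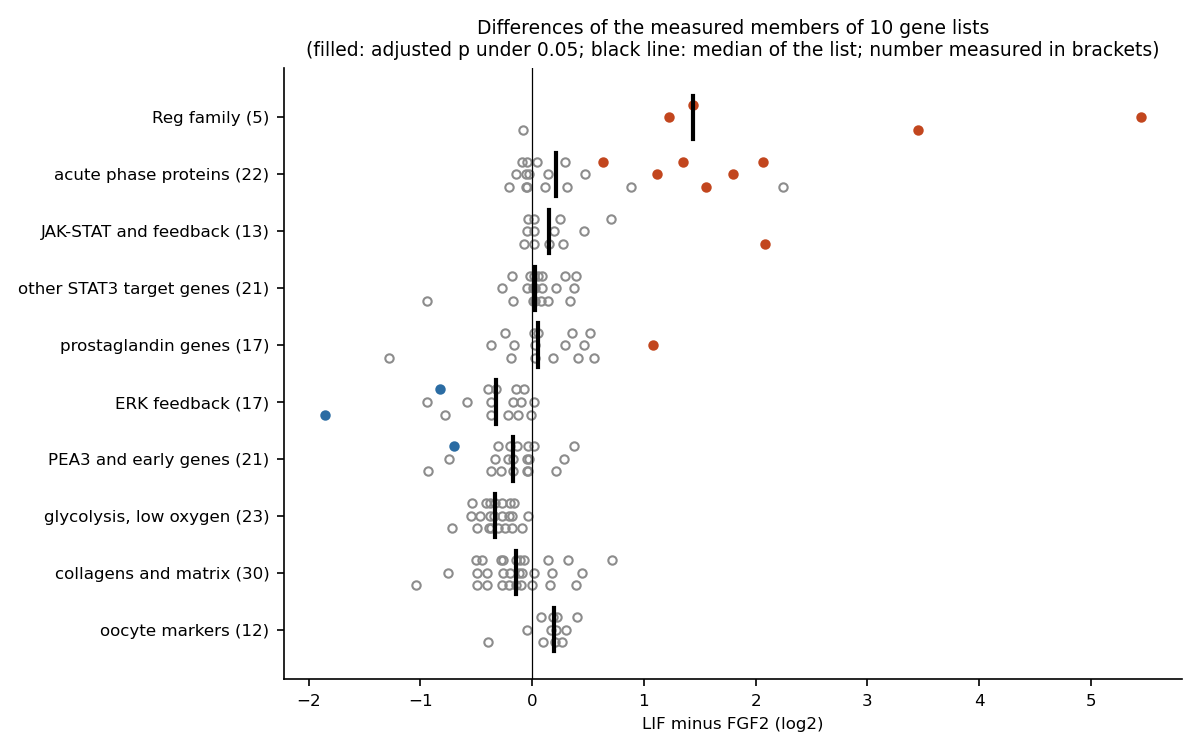
LIF minus FGF2 on the log2 scale for the measured members of 10 gene lists, with filled points for members past the adjusted threshold and a black line at each list's median. Filled points stand toward LIF in the Reg, acute phase, JAK-STAT and prostaglandin lists and toward FGF2 in the ERK feedback and PEA3 lists, and all 23 glycolysis genes stand left of 0 with no filled point.

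Other genes higher with FGF2 encode receptors, transporters and proteins of diverse roles. Tulp2, a tubby-like protein gene, was 5.87, 5.22 and 5.71 with FGF2 and 4.43, 4.54 and 4.43 with LIF, a difference of -1.13 ± 0.12 (adjusted p = 8.60e-07). It was the only gene higher with FGF2 that stayed called whichever of the 6 samples was left out, and also the only one called without both samples numbered 1 (-0.98, adjusted p = 3.35e-04). Every FGF2 value of Tulp2 lay above the highest control, at 4.81. Its means, 5.60 with FGF2 and 4.47 with LIF, were both under the median level of all probe sets, 5.98.

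Receptor genes in this group were Adcyap1r1 (the PACAP receptor; -1.24 ± 0.26), P2ry1 (a purinergic receptor; -1.18 ± 0.24), Ramp1 (the partner of the CGRP receptor; -1.01 ± 0.19) and Aplnr (the apelin receptor; -0.92 ± 0.18). Adcyap1r1 measured 7.76, 6.53 and 6.57 with FGF2 against 5.42, 5.73 and 5.995 with LIF. Sample 1 was the highest FGF2 sample there, as it was in 21 of the 22 probe sets higher with FGF2. Transporters were Slc29a1, for nucleosides (-0.94 ± 0.18; 9.80, 8.56 and 8.46 against 8.03, 8.13 and 7.86), and Slc43a1, for large neutral amino acids (-0.74 ± 0.16). Also among the 15 largest were Ttc39b (-0.93 ± 0.20), Sod3, the extracellular superoxide dismutase (-0.86 ± 0.16), Tmem204 (-0.85 ± 0.17), Aig1 (-0.76 ± 0.15) and Nsg2 (-0.73 ± 0.16). Tmem204 had even FGF2 values, 7.99, 7.95 and 8.13, against 7.20, 7.19 and 7.12 with LIF. The other 4 genes with a symbol, named after their values were seen, were Fxyd6, Selenop, Cyp2d4 and Cnrip1, with differences from -0.56 to -0.66.

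Without FGF2 sample 1, 14 of the 15 named genes higher with FGF2 lost their call, Tulp2 being the exception. The differences of the 15 kept their sign, as they must where the groups do not overlap. With the replicate number as a block, 7 of the 15 lost it: Adcyap1r1 (adjusted p = 0.0855), Ttc39b (0.0825), Aplnr (0.0812), Aig1 (0.0936), Slc43a1 (0.0668), Nsg2 (0.0753) and Etv1, given above. Of the 4 genes named after their values were seen, Fxyd6 (0.0936) and Cnrip1 (0.0611) also lost it. On the LIF side, none of the 18 genes named by the rule lost its call with the block, and of the others Sh2d4a (0.0869) and Kif1a (0.0511) did. Of the 51 probe sets, 38 were called with it, 26 of the 29 higher with LIF and 12 of the 22 higher with FGF2. It added 19 probe sets, of which Pgf, a growth factor of the VEGF family (1.15), Prg4 (1.00), H19 (0.79), Hsd11b1, which activates glucocorticoids (-1.11), Ankh (-1.13) and Emp1 (-0.92) are named here after their values were seen.

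**Figure D4:**
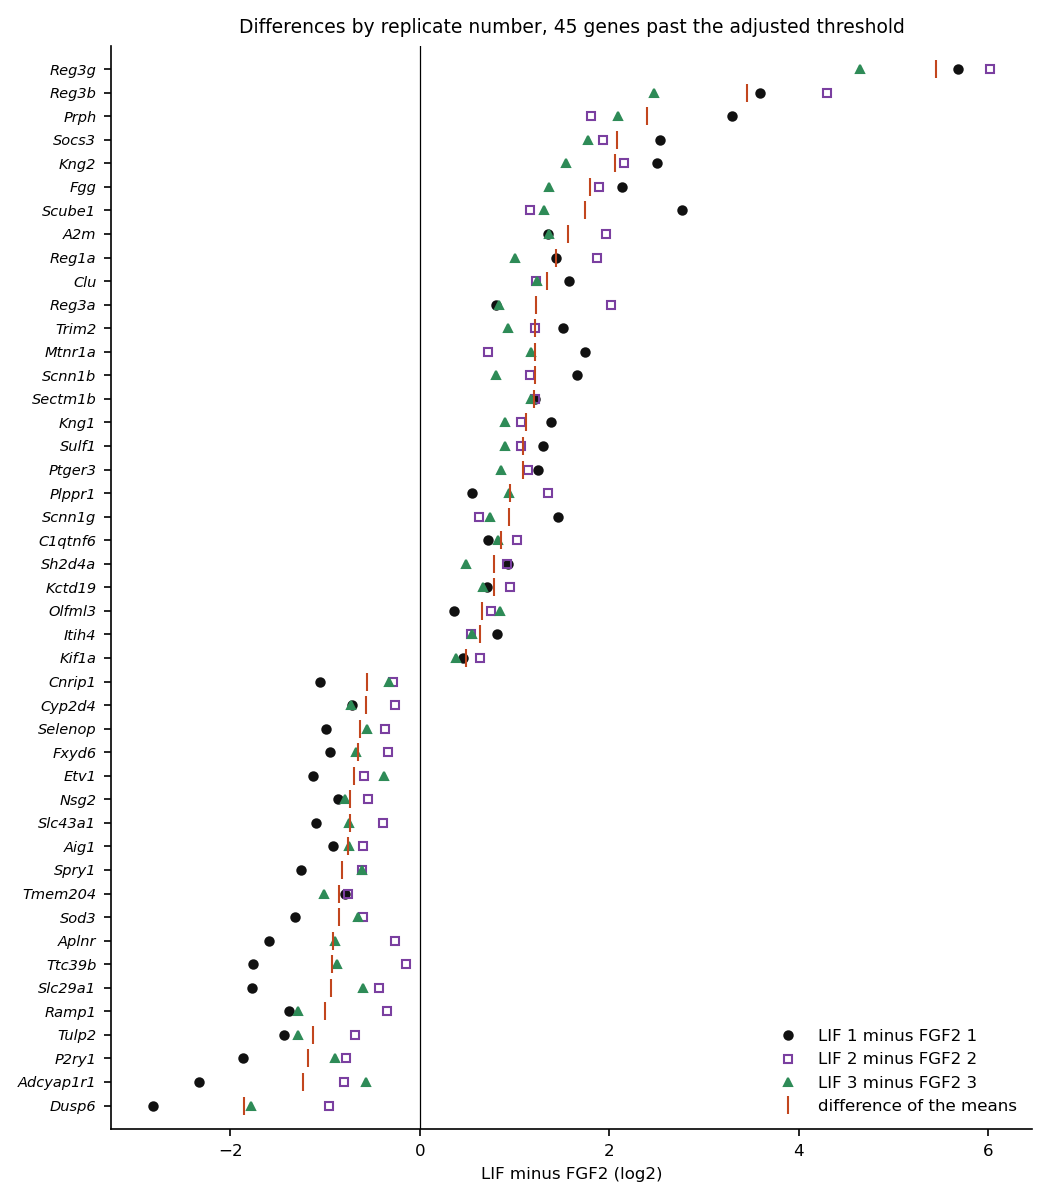
LIF minus FGF2 on the log2 scale between samples of the same replicate number, with a row for each of 45 genes called and a vertical tick at the difference of the means. All points of a gene lie on the same side of 0, as they must where the groups do not overlap. For most genes higher with FGF2 the circle of the samples numbered 1 lies farthest from 0.

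Set against the untreated controls, the called probe sets higher with LIF had LIF means farther from the control mean than FGF2 means in 28 of 29 cases, and those higher with FGF2 had FGF2 means farther in 22 of 22. The control mean lay between both group means in 26 of the 29 and in 15 of the 22. The probe sets were called for their gap between LIF and FGF2, so some distance from the controls is built in. For the 22, the median distance of the FGF2 samples above the control mean was 1.24 in sample 1, 0.65 in sample 2 and 0.67 in sample 3. For the 29, the LIF samples lay 1.25, 0.91 and 0.81 above it. Sh2d4a was the exception among the 29, with an FGF2 mean farther below the controls than its LIF mean was above them.

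**Figure D5:**
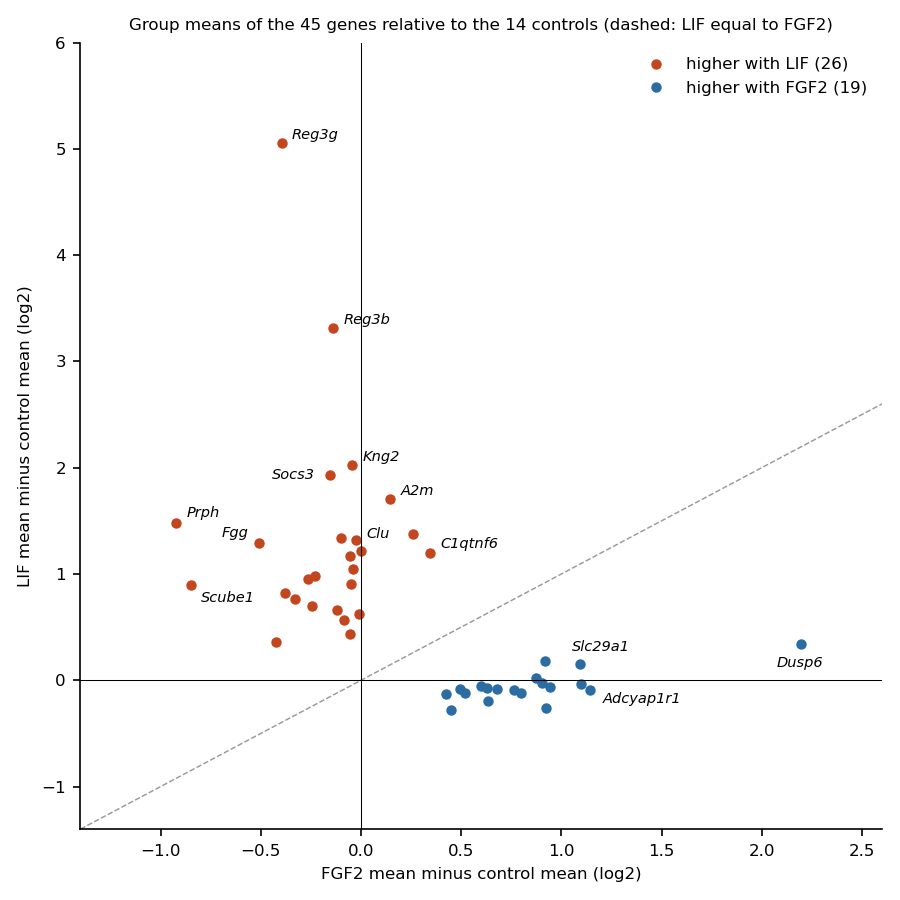
Mean of the LIF samples (vertical) against mean of the FGF2 samples (horizontal), both as log2 differences from the mean of 14 controls, for 45 called genes. Most genes higher with LIF lie near the vertical line at 0 and genes higher with FGF2 near the horizontal line at 0, while Prph and Scube1 lie at -0.92 and -0.85 on the FGF2 axis.

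In the other 21 of 27 gene lists limma called 0 of 410 genes, of which 43 had an unadjusted p under 0.05. In the 8 lists of cell type markers it called 0 of 84, of which 2 had such a p. Over all probe sets, 0.187% were called and 4.13% had an unadjusted p under 0.05. The block called 3 of the 410 (Lifr, Pgf and Hsd11b1) and 1 of the 84, Upk1b. Glycolysis and low-oxygen genes shared a direction, as 23 of 23 were lower with LIF with a median of -0.33, and none passed. Their mean level was 9.29 in FGF2 sample 3 and between 8.47 and 8.70 in the other 5 samples, and the median was -0.10 between the samples numbered 1. Genes of the amino acid shortage response leaned the same way (17 of 21, median -0.20). Over all probe sets, 56% were lower with LIF, and 46.7% of those at or above the median level. The remaining lists had medians between -0.15 (collagens and matrix) and 0.14 (TGFb and BMP system). Between the samples numbered 1 these list medians were -0.36 and 0.31, and over the other pairs -0.06 and 0.04. These held complement, coagulation, IL1, TNF and NFkB genes, the interferon response, primordial follicle regulators, the PDGF, VEGF and KIT group, the TGFb and BMP, WNT, NOTCH and IGF systems, steroid and cholesterol synthesis, cell division, D cyclins with CDK inhibitors, and collagens and matrix, beside the lists named above.

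Single members of these lists differed without passing. C7, a complement component, measured 10.06, 10.75 and 10.27 with LIF and 8.11, 9.21 and 8.84 with FGF2, a difference of 1.64 ± 0.42 with no overlap (adjusted p = 0.173). Gfra1, the GDNF co-receptor, was 7.79, 7.94 and 8.05 against 6.01, 7.38 and 7.22 (1.05 ± 0.31, adjusted p = 0.384). Igfbp5 was 12.79, 12.51 and 12.61 against 12.17, 11.68 and 12.22 (0.61 ± 0.18, adjusted p = 0.387). Ccnd1, a D cyclin, overlapped between the groups (7.64, 6.86 and 6.76 against 9.17, 7.76 and 7.13) at -0.94 ± 0.37.

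Among cell type markers, medians ran from -0.21 (stroma and smooth muscle) to 0.20 (pregranulosa and granulosa cells, and oocytes). The stroma median was -0.39 between the samples numbered 1 and 0.07 over the other pairs. Of all probe sets 56% were lower with LIF, and of those at or above the median level 46.7%. Markers of pregranulosa and granulosa cells were higher with LIF in 13 of 14 measured, with 0 of the 14 below that level, and none passed. Their median was 0.32 between the samples numbered 1 and 0.08 over the other pairs, where 6 of the 14 were lower with LIF. Macrophage markers were highest in the sample numbered 1 of both factors: their mean level was 7.96, 7.32 and 6.89 in LIF samples 1, 2 and 3 and 7.87, 7.19 and 7.03 in the FGF2 samples of these numbers. The list medians of surface epithelium, endothelium, macrophages, mast cells and red blood cells were 0.07, -0.04, 0.02, 0.18 and -0.04. Markers of ovary cells were present in both groups, as the mean log2 level of granulosa markers was at least 7.52 and that of stroma markers at least 8.66 in each of the 6 samples.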

How the data were processed

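RNA of 44 samples was hybridised to Affymetrix Rat Gene arrays. The authors read the scans in Partek by RMA with adjustment for GC content, the 38 arrays used here in one group, and deposited log2 values, which were taken as they stand; a fold is 2 to the power of the log2 difference. No detection calls were used, and the number of arrays limits the precision. LIF and FGF2 arrays were compared with lmFit and eBayes of limma 3.58.1 (R 4.3.3), with 9 group means fitted on 38 arrays and Benjamini-Hochberg adjustment over 27342 probe sets at 0.05. For the thresholds of the methods, the unadjusted p of limma had to reach 0.05. The linear means had to differ by 10 or more, and their ratio had to lie outside 0.83 to 1.2. An exact permutation test of 3 against 3 has 20 splits and cannot go below 0.1, so it was not used.

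The named genes were the 15 largest differences in each direction with 1 symbol past the threshold, list members past it, and Lif, Fgf2, Lifr, Il6st, Osmr and Fgfr1 to Fgfr4. These genes, the 27 gene lists and the 8 marker lists were chosen with earlier results of these data known. A gene with several probe sets was represented in the lists by the one with the highest mean. Symbols came from GEO's platform annotation (15097 probe sets with 1, 323 with several, 11922 with none) and were checked by gene number.

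Same-numbered LIF and FGF2 samples deviated together from their group means (r = 0.633, 0.293 and 0.414, against -0.54 to 0.284 for other numbers), so the numbers were taken to pair the samples. Deviations from a mean of 3 samples sum to 0, so a high r for number 1 forces low values with the other numbers. All negative values, -0.384 to -0.54, involved a sample numbered 1. Among samples 2 and 3, r was 0.293 and 0.414 for the same number and 0.284 and 0.249 otherwise. The pairing of numbers 2 and 3 is thus not clear from these values. The pairing comes from the data; the labels do not state it, and the methods say that each culture day held controls and a few of the factors. The block fit used the 27 arrays numbered 1 to 3, so controls and other factors of a number shared its block. By the same correlation, the nearest control of both samples numbered 1 was control 1. It was control 4 for LIF sample 2, 14 for FGF2 sample 2, 8 for LIF sample 3 and 6 for FGF2 sample 3. The numbers of the controls thus did not match for samples 2 and 3, which limits the block fit. The fit without the block was tested on simulated data of this layout. Alternatives were other fits, filters, normalization and samples left out. Tables used Python 3.11.15 and pandas 2.3.3.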

Additional observations from a re-analysis of the deposited data

How the results depend on the processing

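The 51 calls (29 higher with LIF, 22 with FGF2) changed with how the spread was estimated. With the 6 arrays alone in the fit there was 1 call (1 and 0; 986 at an unadjusted p under 0.05), and the replicate block within these 6 arrays, which pairs the samples by number, also gave 1 (1 and 0; 1772 at an unadjusted p under 0.05). With LIF, FGF2 and the controls in the fit there were 23 (19 and 4). The methods' t-test gave 0 in both directions after Benjamini-Hochberg adjustment on log2 or linear values, with 1238 and 1198 at an unadjusted p under 0.05. Leaving out the dimmer probe sets kept 28 (13 and 15). Weighting the arrays by quality, a robust fit with a trend of variance on level, a second quantile normalization, probe sets with 1 symbol alone and the replicate block over 27 arrays gave 45 to 57. That block changed no call of a gene named by the rule besides those given in the report.

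Leaving out 1 of the 6 arrays gave 18 to 52 calls, 16 to 27 of them higher with LIF and 2 to 31 with FGF2. Leaving out both samples of a number, which was chosen after seeing the data, gave 12 calls (11 and 1) without number 1, 39 (17 and 22) without number 2 and 29 (22 and 7) without number 3. The 676 probe sets past the methods' thresholds became 1255 with the replicate block of 6 arrays and 323 or 309 with the methods' t-test on log2 or linear values. The sign turned for 4 genes that were not called: with samples left out Lif ranged from -0.267 to 0.144, Fgf2 from -0.337 to 0.082, Il6st from -0.071 to 0.287 and Fgfr4 from -0.077 (without both samples numbered 3) to 0.238. No called gene named by the rule changed sign in these alternatives, and leaving samples out cannot turn the sign of groups that do not overlap. In the reported fit 11 of the 29 and 3 of the 22 probe sets had both means under the median level of 5.98. These probe sets are dim, and Reg1a, Reg3a, Ptger3, Plppr1, Scnn1g and Tulp2 are among them.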

Other observations

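Several probe sets with large differences did not pass the threshold in the fit without the block and belong to no list; they are named here after their values were seen. C1qtnf12, a secreted C1q-domain protein gene, had the largest of them: 9.999, 8.43 and 9.92 with LIF and 6.62, 6.83 and 7.96 with FGF2, a difference of 2.31 ± 0.71 with no overlap (adjusted p = 0.447 by limma). Wfdc18 was 1.73 ± 0.53 higher with LIF (adjusted p = 0.462) and was called with the replicate number as a block (0.0241), and Spon1, which encodes an extracellular matrix protein, was 1.22 ± 0.33 higher, with FGF2 values of 8.51, 8.53 and 8.47. Toward FGF2, Pnoc, which encodes the precursor of the neuropeptide nociceptin, was 9.27, 8.31 and 9.42 with FGF2 and 7.75, 6.98 and 7.88 with LIF, a difference of -1.46 ± 0.45 (adjusted p = 0.466). Cyp26b1, a retinoic acid hydroxylase gene, was at 7.63 in FGF2 sample 1, at 4.95 and 5.01 in the other FGF2 samples and between 4.55 and 4.73 with LIF.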
